A study of Sus scrofa with 6 samples.

Results

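The SOX genes encode transcription factors that share a DNA-binding domain, the HMG box, and are sorted by its sequence into subgroups named with letters. SOX2, of subgroup B1, works with OCT4 in pluripotent cells and is also a factor of neural progenitors. SOX4, SOX11 and SOX12 (subgroup C) are found in many progenitor cells, SOX5, SOX6 and SOX13 (subgroup D) lack a transactivation domain of their own, SOX8 and SOX9 (subgroup E) act in cartilage and neural crest, and SOX17 (subgroup F) acts in endoderm and in blood vessels. The family was described here by 10 members, SOX2, SOX4, SOX5, SOX6, SOX8, SOX9, SOX11, SOX12, SOX13 and SOX17, chosen by name from a table of 18007 genes, and each name matched 1 row.

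The values came from 3 lines of porcine embryonic fibroblasts (PEF5, PEF7 and PEF8) and from the porcine induced pluripotent stem cells (piPSC5, piPSC7 and piPSC8, labelled ips5, ips7 and ips8) made from them. The fibroblasts were grown from ear tips at embryonic day 90 of embryos that shared a Large White father and a Meishan mother, and the piPSCs received Oct4, Sox2, Klf4 and cMyc (OSKM) from a lentivirus switched on by doxycycline. piPSC colonies were picked and grown on mouse feeder cells, so each piPSC library also depends on the colonies picked and on an active transgene. Each line gave 1 poly-A library, so n is 3 lines per group and the comparison has no replicates within a line.

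Library totals, recovered from the FPKM values, ran from 11010629 to 17836510 fragments, and the 3 piPSC libraries were shallower than the 3 PEF libraries. All 11 fibroblast markers on the list used here were called lower in piPSCs, where 16.7% of all tested genes were. COL1A1, COL1A2 and BGN had the largest decreases. The summed FPKM of the 11 was between 6034 and 8651 in PEFs and between 233.7 and 431.1 in piPSCs. Against the label of pluripotent cells, NANOG had 0, 0.0919 and 0 FPKM in piPSC5, piPSC7 and piPSC8, SALL4 at most 0.0509 and ESRRB at most 0.0141, while LIN28B had 2.51, 0.281 and 8.90 FPKM. POU5F1, the gene of OCT4, was not matched and was not read here. The study reports alkaline phosphatase staining and Oct4 immunofluorescence as positive in these piPSCs, and low mRNA of endogenous Oct4, Nanog, Sall4 and Esrrb. DDX3Y, a Y-linked gene, had 3439 fragments in PEF8 and 4207 in piPSC8 and 0 in the libraries of lines 5 and 7. The study describes its lines as male.

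The stretch below shows how closely the family is related at the gene level, and where members differ from SOX2. It is the 27 bases that encode a conserved start of the HMG box, read 5′ to 3′ from the RefSeq coding sequences on Sscrofa11.1, with capitals for bases that differ from SOX2. SOX21, a subgroup B2 gene that is not a member, is added because its levels are given further on.
SOX2: cggcccatgaacgctttcatggtgtgg
SOX4: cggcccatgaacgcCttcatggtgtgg
SOX11: AggccGatgaacgcGttcatggtgtgg
SOX12: AgAccAatgaacgcGttcatggtgtgg
SOX5: cgTccAatgaaTgcCttcatggtgtgg
SOX6: cgAccAatgaaTgcAttcatggtTtgg
SOX13: AggcccatgaaTgcCttcatggtgtgg
SOX8: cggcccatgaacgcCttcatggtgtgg
SOX9: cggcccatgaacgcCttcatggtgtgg
SOX17: cggccGatgaacgcCttcatggtgtgg
SOX21: cggcccatgaaTgcCttcatggtgtgg

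The SOX2 stretch lies at chr13:119668608-119668634 on the plus strand, that of SOX6 at chr2:43050438-43050464 on the plus strand, that of SOX9 at chr12:8646968-8646994 on the minus strand and that of SOX12 at chr17:34857811-34857837 on the minus strand, each within a coding exon. SOX4, SOX8 and SOX9 were identical here and differed from SOX2 at 1 base, while SOX6 differed at 5. Over whole coding sequences, the longest run of identical bases shared by any pair of members was 45, between SOX8 and SOX9, and SOX2 and SOX21 shared 35. Reads were 150 bases long, so no read lying in coding sequence alone matches a pair of members without a mismatch.

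The table's gene models differ in what they cover, which sets how levels can be compared between genes. The models of SOX4 (1434 bp), SOX11 (1344 bp), SOX12 (939 bp) and SOX21 (831 bp) are as long as their RefSeq coding sequences, so fragments in their untranslated ends were not counted. The SOX2 model (chr13:119663183-119669539) spans 6357 bp as a single block and begins 5293 bases before the RefSeq gene, whose model holds the 960 coding bases only. FPKM, the fragments scaled to the length of such a model and to the library's total, therefore understates or overstates these genes to different degrees.

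**Figure D1:**
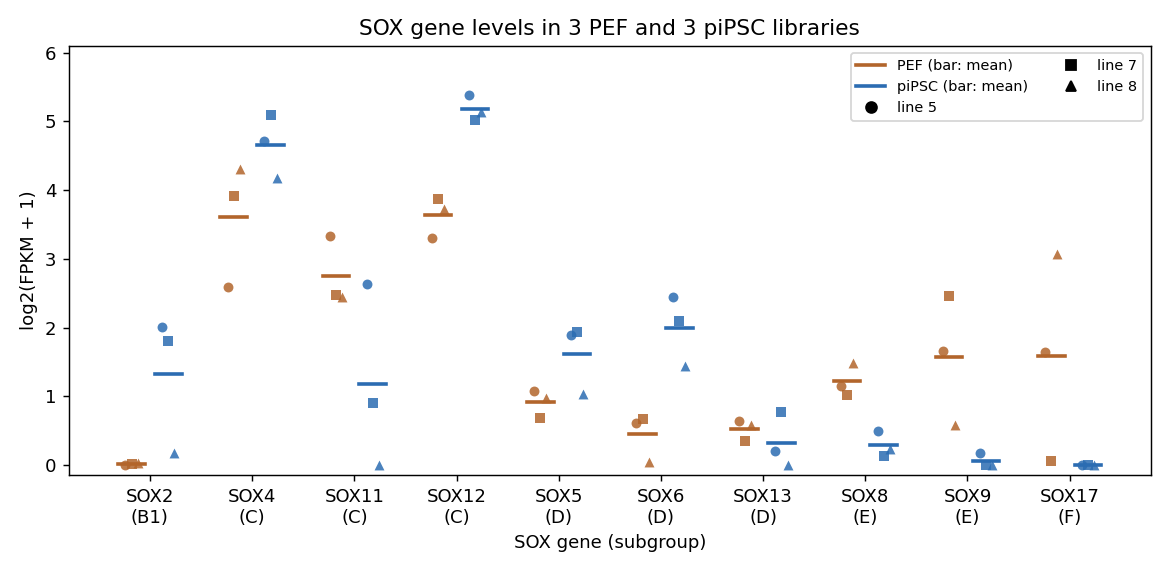
The plot shows log2(FPKM + 1) of each SOX gene, with PEF libraries in brown, piPSC libraries in blue, the marker shape for the line and a bar for the group mean. SOX12 and SOX6 sit higher in every piPSC library than in any PEF library, SOX8, SOX9 and SOX17 sit lower, and SOX2 is near 0 in PEFs and in piPSC8.

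Of the 10 members, 9 had a mean FPKM of at least 0.5 over the 6 libraries and were tested with limma on log2(FPKM + 1), with Benjamini-Hochberg adjustment over all 12428 genes tested. With both an adjusted p under 0.05 and a change of 2-fold or more required for a call, SOX6 and SOX12 rose and SOX9 fell in piPSCs. That is 3 of 9 (33.3%), where 36.8% of all tested genes were called, 20.2% of them higher and 16.7% lower as shares of all tested genes, so the family was called about as often as the table as a whole. When each library was rescaled to the median ratio over genes, the table gave 1879 higher and 2511 lower genes in place of 2505 and 2070, and the median log2 change of all genes moved from 0.20 to -0.01. The median of the 9 tested members was 0.71 as deposited and 0.55 after that rescaling, with 5 members above 0 and 4 below. PEF and piPSC values did not overlap for 6 of the 9, 3 in each direction, and the same held for 64.1% of all tested genes (37.3% higher and 26.8% lower in piPSCs). An adjusted p under 0.05 alone was reached by 4 members, against 51.7% of all tested genes (30.3% higher and 21.5% lower). Because a gene high in either group passes the filter on the mean, these counts describe the 9 and not all members.

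**Figure D2:**
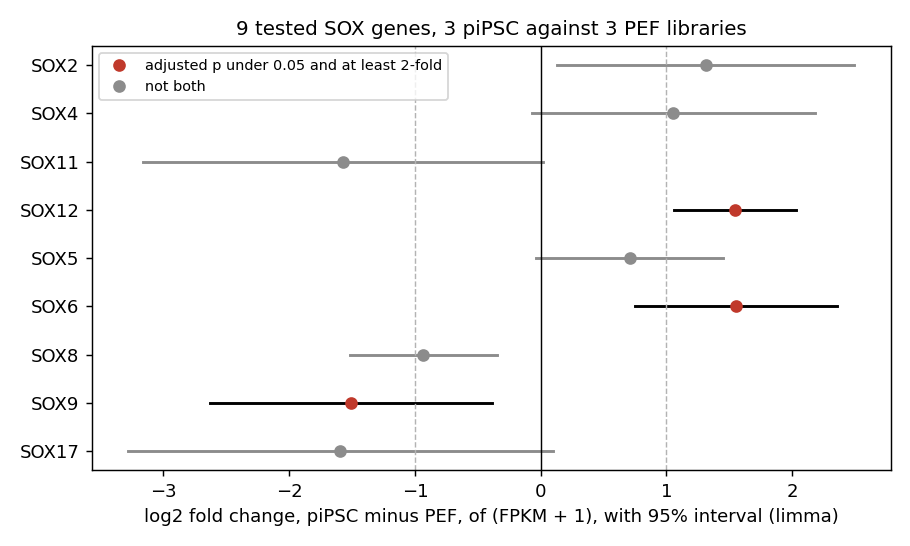
The plot shows the log2 change of (FPKM + 1) of 9 tested SOX genes, piPSC minus PEF, with its 95% interval from limma over 3 libraries a group. Red points, for SOX12, SOX6 and SOX9, mark members past both thresholds, and dashed lines mark 2-fold.

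Among the subgroup C genes, SOX12 rose, SOX4 was the other abundant member, and SOX11 was lower in 2 of 3 piPSC libraries than in any PEF library. SOX12 (ENSSSCG00000021920, chr17:34857022-34857960, minus strand) had 8.90, 13.6 and 12.2 FPKM in PEF5, PEF7 and PEF8 and 40.9, 31.4 and 34.1 FPKM in piPSC5, piPSC7 and piPSC8. The groups did not overlap, and the lowest piPSC value (31.4 FPKM) was well above the highest PEF value (13.6 FPKM). Its mean rose from 11.6 ± 2.43 to 35.5 ± 4.88 FPKM (SD, n = 3), 3.06-fold, with a log2 change of 1.55 (standard error 0.20, limma adjusted p = 0.00149). It was called in each of the 15 alternatives, with a log2 change from 1.28 to 1.66.

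SOX4 (ENSSSCG00000001081, chr7:16891319-16892752, plus strand), which is active in many embryonic progenitors, had 5.04, 14.1 and 18.9 FPKM in PEF5, PEF7 and PEF8. In piPSC5, piPSC7 and piPSC8 it had 25.3, 33.0 and 17.2 FPKM, so the groups overlapped through line 8. The log2 change of 1.06 (standard error 0.47, 95% interval -0.07 to 2.18) did not pass the test (limma adjusted p = 0.101), nor did it in any of the 15 alternatives.

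SOX11 (ENSSSCG00000008649, chr3:129798854-129800197, minus strand), a factor of developing neurons and mesenchyme, had 9.09, 4.54 and 4.47 FPKM in PEF5, PEF7 and PEF8 and 5.19, 0.876 and 0 in piPSC5, piPSC7 and piPSC8. These rest on 218, 102 and 91 fragments in the PEF lines and on 105, 14 and 0 in the piPSC lines. piPSC5 lay within the range of the PEFs, and each piPSC line was below its own PEF line. The log2 change was -1.57 (standard error 0.66, limma adjusted p = 0.0871). With the line as a replicate block the limma adjusted p was 0.0304, and without piPSC5 it was 0.0127 with a log2 change of -2.30, so the call depends on whether lines are paired and on piPSC5.

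Of the subgroup D genes, SOX6 rose while SOX5 and SOX13 did not pass the test or were too low for it. SOX6 (ENSSSCG00000034191, chr2:42452778-43068323, plus strand), which acts with SOX5 and SOX9 in cartilage and also in erythroid, muscle and neural cells, had 0.527, 0.593 and 0.0334 FPKM in PEF5, PEF7 and PEF8. It had 4.47, 3.26 and 1.73 FPKM in piPSC5, piPSC7 and piPSC8, all above the PEF values. PEF5, PEF7 and PEF8 held 93, 98 and 5 of its fragments, and piPSC5, piPSC7 and piPSC8 held 665, 384 and 188. The mean went from 0.384 ± 0.306 to 3.15 ± 1.37 FPKM (SD, n = 3), 8.20-fold, with a log2 change of 1.55 (standard error 0.34, limma adjusted p = 0.0094) that was called in each of the 15 alternatives.

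SOX5 (ENSSSCG00000000567, chr5:49749765-50161468, plus strand) had 1.10, 0.608 and 0.971 FPKM in PEF5, PEF7 and PEF8 and 2.70, 2.83 and 1.05 in piPSC5, piPSC7 and piPSC8. piPSC8 lay inside the PEF range. The log2 change was 0.71 (standard error 0.31, 95% interval -0.03 to 1.45, limma adjusted p = 0.0966), and without piPSC8 it was 1.00 with a limma adjusted p of 0.0183. SOX13 (ENSSSCG00000015277, chr9:64731740-64779300, plus strand) was under the filter, with 26, 12 and 20 fragments in the PEF lines against 6, 22 and 0 after reprogramming.

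SOX8 and SOX9, the members of subgroup E, were lower in every piPSC library than in any PEF library. SOX9 (ENSSSCG00000017251, chr12:8641629-8647764, minus strand), the factor that starts cartilage formation, had 2.15, 4.50 and 0.501 FPKM in PEF5, PEF7 and PEF8 and 0.130, 0 and 0 in piPSC5, piPSC7 and piPSC8. PEF5, PEF7 and PEF8 held 177, 347 and 35 of its fragments against 9, 0 and 0 in the piPSCs, with no overlap of the groups but a wide spread among the PEF lines. The group means were 2.38 ± 2.01 and 0.0432 ± 0.0748 FPKM (SD, n = 3), 55.2-fold apart, 30.7-fold without PEF7 and 36.8-fold without either piPSC7 or piPSC8. Without piPSC5 the other piPSC libraries hold 0 fragments, and SOX9 was at least 85.9-fold lower by a floor of 3 fragments over the group. The log2 change of -1.51 (standard error 0.47, limma adjusted p = 0.0342) was lost in 7 of 15 alternatives, among them leaving out any library other than PEF8, and the adjusted p ranged from 0.00689 to 0.0941.

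SOX8 (ENSSSCG00000037970, chr3:40710043-40830801, minus strand), a close relative of SOX9 in neural crest and gonad, had 1.21, 1.03 and 1.81 FPKM in PEF5, PEF7 and PEF8. It had 0.407, 0.0920 and 0.179 FPKM in piPSC5, piPSC7 and piPSC8, each below every PEF value. The means were 1.35 ± 0.404 and 0.226 ± 0.163 FPKM (SD, n = 3), 5.98-fold apart, and 9.98-fold without piPSC5. On log2(FPKM + 1), which understates changes of low genes, the log2 change was -0.93 (standard error 0.24, limma adjusted p = 0.0187), short of the 2-fold threshold. It passed both thresholds in 6 of 14 alternatives, including the median ratio (-1.03) and equal sums (-1.69) scalings on the log2 scale, but not with quantile normalization (-0.76). The span of the table's SOX8 model also holds the RefSeq genes LOC110259951, C1QTNF8 and SSTR5, and their part in its fragments was not tested. SOX10, the third gene of subgroup E and a marker of Schwann cells and melanocytes, is not a member, and PEF8 held 70 of its fragments while each other library held at most 4.

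SOX17 (ENSSSCG00000006256, chr4:76855151-76857176, minus strand), of subgroup F, had 2.13, 0.0412 and 7.42 FPKM in PEF5, PEF7 and PEF8 and 0 in each piPSC library. These are 55, 1 and 163 fragments in PEFs, so PEF7 was close to the piPSCs and PEF8 held most of the signal. Over the group, SOX17 was at least 55.7-fold lower in piPSCs by a floor of 3 fragments, and at least 20.5-fold without PEF8. The log2 change of -1.59 (standard error 0.71, limma adjusted p = 0.0997) did not pass the test, and without PEF7 it was -2.36 with a limma adjusted p of 0.0132. With 0 counted, as many as 3 fragments remain possible, and such bounds cover counting error only.

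SOX2 was near 0 in PEFs and was found in piPSC5 and piPSC7, with little in piPSC8. SOX2 (ENSSSCG00000037485, plus strand) had 0, 1 and 2 fragments in PEF5, PEF7 and PEF8, or 0, 0.00941 and 0.0208 FPKM. It had 288, 188 and 9 fragments in piPSC5, piPSC7 and piPSC8, or 3.01, 2.49 and 0.129 FPKM. The summed fragments gave a ratio of 212 between the groups at equal depth (95% counting interval 72.0 to 1030.1, exact binomial). All piPSC values lay above all PEF values, but the log2 change of 1.31 (standard error 0.49, 95% interval 0.13 to 2.49) missed the threshold (limma adjusted p = 0.0626). Without piPSC8 it was 1.89 with a limma adjusted p of 0.00257, and it was called in 3 other alternatives, with a pseudocount of 0.1, quantile normalization or voom on the recovered fragments. Values per gene do not tell the pig SOX2 transcript from the Sox2 of the OSKM transgene or of the mouse feeder cells, and the part of either was not tested.

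SOX21, near SOX2 in sequence, was also lowest among the piPSCs in piPSC8, while SOX2OT, near SOX2 in position, held too few fragments to rank the libraries. SOX21, a close relative that acts in neural progenitors, had 0 fragments in each PEF library and 261, 258 and 1 in piPSC5, piPSC7 and piPSC8, or 20.9, 26.1 and 0.109 FPKM. It was at least 227-fold higher in piPSCs by a floor of 3 fragments over the PEFs, with a log2 change of 3.12 (standard error 1.17, limma adjusted p = 0.0619) that was 4.61 without piPSC8 (limma adjusted p = 0.000317). The exon 4 feature of SOX2OT, the long non-coding RNA around SOX2, had 0 fragments in PEFs and 3, 4 and 0 in piPSC5, piPSC7 and piPSC8. Its exon 3 feature had 1 fragment in piPSC5 and 0 in every other library. SOX3, SOX7, SOX15 and SOX18 had at most 15 fragments in any library. SOX1, SOX14, SOX30 and SRY were not matched and were not analysed here.

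**Figure D3:**
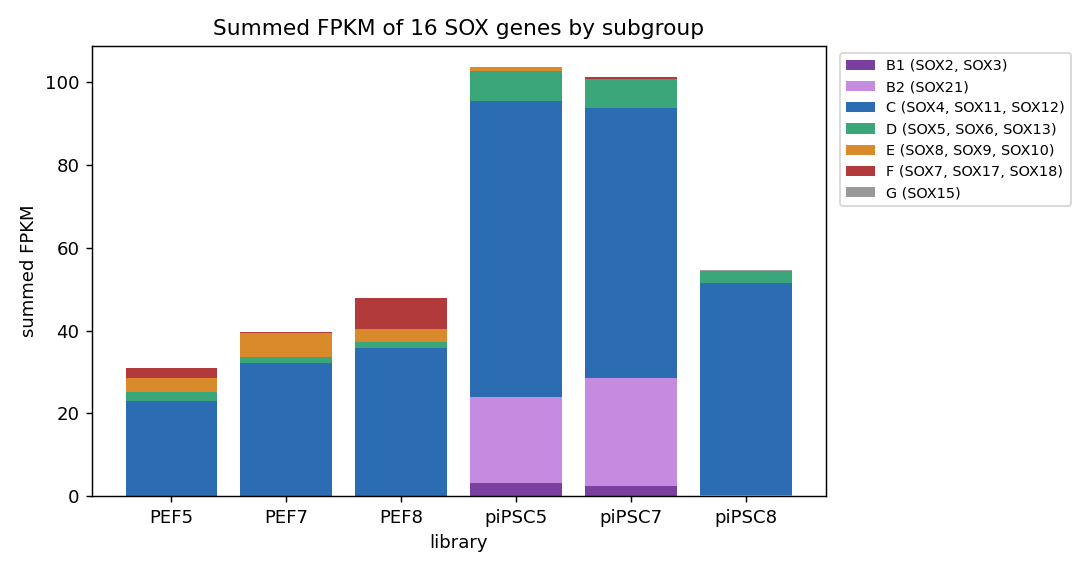
Stacked bars give the summed FPKM of 16 SOX genes in each library, coloured by subgroup. The sum is between 31.0 and 47.8 in PEFs, 104 in piPSC5, 101 in piPSC7 and 54.6 in piPSC8, where the SOX21 layer is missing.

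The make-up of the summed SOX FPKM differed between the groups and, within piPSCs, between line 8 and the others. Subgroup C held 74.3%, 81.2% and 74.4% of the sum in PEF5, PEF7 and PEF8, against 68.9%, 64.6% and 94.0% in piPSC5, piPSC7 and piPSC8. Subgroup E held between 6.56% and 14.0% in PEFs and between 0.151% and 0.53% in piPSCs. SOX21 alone held 20.1% in piPSC5, 25.8% in piPSC7 and 0.2% in piPSC8.

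By mean FPKM, the order in PEFs was SOX4, SOX12, SOX11, SOX17, SOX9, SOX8, SOX5, SOX13, SOX6 and SOX2. In this order, only SOX5 and SOX13, and SOX6 and SOX2, were neighbours whose ranges over the 3 lines did not overlap. In piPSCs the order was SOX12, SOX4, SOX6, SOX5, SOX11, SOX2, SOX13, SOX8, SOX9 and SOX17. Here SOX4, with a lowest value of 17.2 FPKM, and SOX6, with a highest of 4.47, were the only neighbours that did not overlap. SOX6 moved from rank 9 in PEFs to rank 3 in piPSCs, and SOX17 from rank 4 to rank 10, within the limits set by the gene models.

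**Figure D4:**
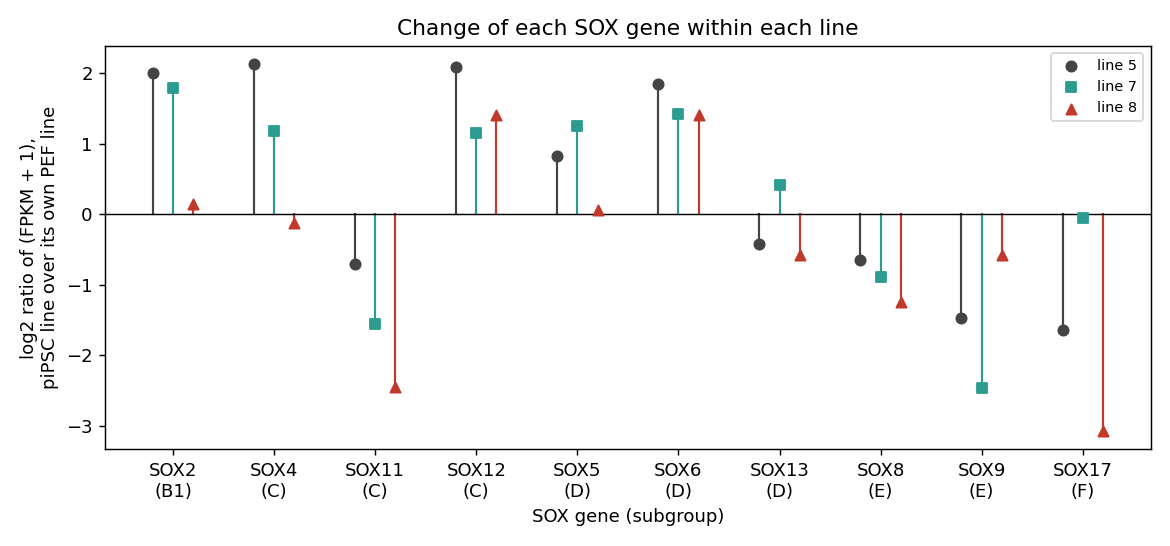
The plot shows the log2 ratio of (FPKM + 1) of each piPSC line over the PEF line it was made from, with the colour and marker for the line and 1 library per line and group. SOX12 and SOX6 are above 1 in each line, while SOX2, SOX4 and SOX5 are near 0 in line 8. In that line, SOX2 rests on 2 fragments in PEF8 and 9 in piPSC8.

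Within lines, SOX12 had log2 ratios of 2.08, 1.15 and 1.41 in lines 5, 7 and 8 and SOX6 of 1.84, 1.42 and 1.40. SOX2 had 2.00 and 1.79 in lines 5 and 7 and 0.14 in line 8, and SOX5 had 0.82, 1.25 and 0.06. In line 8, SOX2 went from 2 to 9 fragments, and its log2 ratio was 0.92 with a pseudocount of 0.1. SOX11 was lower in each line, with -0.71, -1.56 and -2.45, and its largest difference was in line 8. With 1 library on each side, these ratios carry no test.

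SOX12, the member with the lowest adjusted p, was also read at its start, since OCT4, a partner of SOX2, binds the octamer ATGCAAAT. The 250 bases before the RefSeq start of SOX12 (chr17:34858435-34858684, minus strand, Sscrofa11.1) are shown with matches to the searched motifs in capitals.
SOX12: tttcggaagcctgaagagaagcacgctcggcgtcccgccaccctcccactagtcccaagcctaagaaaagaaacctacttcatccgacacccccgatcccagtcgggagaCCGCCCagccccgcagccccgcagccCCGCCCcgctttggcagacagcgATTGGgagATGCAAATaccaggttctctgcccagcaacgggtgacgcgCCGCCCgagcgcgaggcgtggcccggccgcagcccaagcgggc

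The window held 1 octamer, 83 bases before the start, 1 CCAAT box (CCAAT, here as ATTGG), 91 bases before it, and 3 GC boxes (GGGCGG, here as CCGCCC), all searched on both strands and none overlapping another. The octamer occurred in 1.24% of 19531 such windows of RefSeq protein-coding genes, the CCAAT box in 31.9% and the GC box in 45.9%. None of the windows of the other 9 members held the octamer. The SOX core AACAAT (7.07% of windows) occurred once among the members, before the SOX2 coding start, and neither the AP-1 motif TGANTCA (5.25%) nor the TATA box TATAAA (9.76%) occurred in any of their windows. The window of SOX6, the other member that rose, held none of the 6 motifs. A match describes these letters and is not a binding site, and other starts of these genes lie outside the windows. The part of any match in the level of a gene was not tested.

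Genes that the SOX factors work with, or whose tissues they mark, were read from lists. Of all tested genes, 20.2% were called higher and 16.7% lower. Of 18 pluripotency factors, 11 were in the table and 5 were tested, with 0 called higher and 2 lower. These were MYC, with 50.9, 58.9 and 6.95 FPKM in PEFs and 1.42, 1.05 and 0.267 in piPSCs (log2 change -3.98, limma adjusted p = 0.00634, and 0.0633 with voom on recovered fragments), and KLF4, with a log2 change of -1.71 (limma adjusted p = 0.0177, and between 0.00556 and 0.0601 over the alternatives). Both have counterparts in the transgene, which values per gene do not set apart. Of the neural progenitor list, 10 of 16 were tested and 3 called higher, where 20.2% of all tested genes were, with a median log2 change of 1.24 where that of all genes was 0.20. ZIC2 had 0.0304, 0.146 and 0.0715 FPKM in PEFs and 3.51, 7.81 and 1.82 in piPSCs, a log2 change of 2.16 (limma adjusted p = 0.00628). FABP7 (1.24) was called as well, with its call lost in 7 of 13 alternatives, the replicate block among them (limma adjusted p = 0.0617). NES (-1.31), POU3F3 (-1.04) and PAX6 (-0.35) of the same list went the other way, and none of them was called.

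Of the neuronal list, 6 of 12 were tested and 2 called higher, where 20.2% of all tested genes were, with a median log2 change of 0.42. NEUROG2, a proneural factor, had 27.5, 36.4 and 1.33 FPKM in piPSC5, piPSC7 and piPSC8 and at most 0.242 in PEFs, lowest in piPSC8 like SOX2 and SOX21 (log2 change 3.62, limma adjusted p = 0.0231, not called in 5 of 15 alternatives, all of them leaving out 1 library). Genes of the neural progenitor list went both ways in piPSC8. PROM1 had 0.192, 0.0286 and 17.4 FPKM in piPSC5, piPSC7 and piPSC8, ZIC1 1.82, 0.116 and 3.78, and FABP7 2.07, 0.231 and 2.45. These were highest in piPSC8, while ZIC2, MSI1, SIX3 and NES were lowest there. The other neuronal gene called higher was ELAVL4 (1.11, limma adjusted p = 0.0486, not called in 8 of 15). MAP2 had -0.35, DPYSL3 0.20, STMN2 0.40 and TUBB3 0.44, and none of them was called. Under the filter, NCAM1 went from 116, 192 and 71 fragments in PEF5, PEF7 and PEF8 to 7, 3 and 0 in piPSC5, piPSC7 and piPSC8. GAP43 went from 2, 3 and 1 to 26, 4 and 17. Of the cartilage list, 7 of 15 were tested, with COL11A1 called higher (2.07, limma adjusted p = 0.0142, and 0.0507 without piPSC5) and MATN4 lower (-2.84, limma adjusted p = 0.000301), and a median of 0.98. Over all tested genes, 20.2% were called higher and 16.7% lower, with a median of 0.20. Of the 14 cartilage genes in the table, the summed level was between 15.3 and 35.3 FPKM in PEFs and between 82.5 and 189 in piPSCs. The piPSC sums rest on few genes, with COL9A2 at 151 FPKM in piPSC7 and HAPLN1 at 30.8 in piPSC5. COL11A1 had 66.1, 31.3 and 75.3 FPKM in piPSC5, piPSC7 and piPSC8. COMP (-1.47) and COL9A3 (-1.07) were lower in piPSCs without a call. COL2A1 and ACAN were at most 0.0339 and 0.106 FPKM in piPSCs. In PEFs, the defining genes COL2A1 and ACAN were at most 0.0452 and 0.0596 FPKM. In PEF5, PEF7 and PEF8, COL11A1 had 17.1, 17.6 and 5.61 FPKM, MATN4 6.17, 6.42 and 7.80, and COMP 0.839, 7.88 and 0.291. SOX9 was highest in PEF7, as COMP was, while MATN4 was highest in PEF8. The part of these genes in the SOX9 levels was not tested.

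Of the neural crest, Schwann and melanocyte list, 5 of 13 were tested and 3 called lower, where 16.7% of all tested genes were, with a median of -1.46. The other tested genes had positive values that missed the threshold, with 1.05 for FOXD3 (limma adjusted p = 0.0508) and 0.54 for MITF (limma adjusted p = 0.0532). MSX1 had at least 3.25 FPKM in each PEF library and at most 0.664 in any piPSC library (-2.56, limma adjusted p = 0.0034), and SNAI2 (-1.59) and TFAP2A (-1.46) were called with adjusted p values of 0.024 and 0.043 in limma. TFAP2A had 0.051 with the replicate block and lost its call in 8 of 15 alternatives, and SNAI2 in 4. In such bulk samples, fewer cells of a type and less RNA per cell cannot be told apart.

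Of the endoderm list, 2 of 14 were tested and 1 called higher, where 20.2% of all tested genes were. FOXA1 rose with 0.0394, 0.021 and 0.0929 FPKM in PEFs and 13.9, 2.31 and 5.59 in piPSCs (2.71, limma adjusted p = 0.00611). SOX17 of the same tissue had 0 fragments in piPSCs. FOXA3, GATA4, HNF4A, TTR and AFP were at most 0.0969 FPKM in each piPSC library, while HHEX had 2.39 FPKM in piPSC8 and GATA6 had 0.549 and 0.815 FPKM in piPSC5 and piPSC7. Of the endothelial list, 3 of 13 were tested and 1 called lower, where 16.7% of all tested genes were. FLT1 fell, with 509, 964 and 2909 fragments in PEF5, PEF7 and PEF8 and 22, 2 and 0 in piPSC5, piPSC7 and piPSC8 (-3.34, limma adjusted p = 0.00457). The summed level of the 11 endothelial genes in the table was between 13.1 and 31.9 FPKM in PEFs and between 0.0589 and 1.59 in piPSCs. In PEFs, the defining genes CDH5, KDR and VWF were at most 0.0191 FPKM, while PECAM1 had 2.57 and ESAM 2.02 FPKM in PEF8, where SOX17 was highest, and ERG had 7.98 and 8.62 FPKM in PEF5 and PEF7. Their part in the SOX17 levels was not tested. Of the keratinocyte and epithelial list, 3 of 11 were tested and 0 called at both thresholds, where 36.8% of all tested genes were. KRT10 alone passed an adjusted p under 0.05, with a log2 change of 0.59.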

How the data were processed

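Poly-A RNA of 3 PEF and 3 piPSC libraries was sequenced as 150 bp read pairs with a kit that does not mark strand. The authors deposited 1 table of FPKM values per gene. Their processing notes name HISAT2 2.1.0, Bowtie2 2.2.3, HTSeq 0.6.0 and the build Sscrofa11.1, while the annotation release is not given in the sources used here. Whole fragments and library totals were recovered from the FPKM values and gene lengths for all 18007 genes and gave the counting intervals and floors, which cover counting error only.

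Genes whose FPKM averaged 0.5 or more were tested with limma 3.58.1 (R 4.3.3, trend in eBayes, two-sided, unpaired) on log2(FPKM + 1), and p-values were adjusted over all 12428 tested genes. A call needed an adjusted p under 0.05 and a 2-fold change. Each line gave 1 library per group, so p-values measure the spread between 3 lines. Same-numbered PEF and piPSC lines share an embryo per the study's methods, and deviations from the group means correlated with r of 0.0921, 0.0946 and 0.08 within lines 5, 7 and 8 and -0.121 to 0.0553 between lines. A second fit took the line as replicate block. The fit was tested on simulated data. Sequences were read from RefSeq on Sscrofa11.1 with Python 3.11.15, and promoter windows are the 250 bases before the annotated start.

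The members and lists were chosen with earlier results of these data known. Named genes were all members, the other SOX genes in the table and, per list, up to 3 called genes with the largest log2 fold change. Genes of the lists that were not called were named after their values were seen, and a few list genes are not reported here. Alternatives were the block, pseudocount 0.1, 2 other filters, 3 other scalings, no trend, voom on recovered fragments and leaving out each library.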

Additional observations from a re-analysis of the deposited data

Results flagged for a closer look

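SOX4 and SOX13 moved in opposite ways in different lines. The log2 ratio of (FPKM + 1), piPSC over PEF, was 2.12 in line 5, 1.17 in line 7 and -0.13 in line 8 for SOX4. For SOX13 it was -0.43 in line 5, 0.42 in line 7 and -0.58 in line 8, on at most 26 fragments a library. With 1 library per line and group, the differences between lines were not tested.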

How the results depend on the processing

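Of 132 member values under the alternatives, 111 kept their call and direction, 14 gained a call, 7 lost one and 0 reversed, and SOX6 and SOX12 were called in each. The number of members called higher was 2, it was 3 with a pseudocount of 0.1, quantile normalization and voom (SOX2 added), and leaving out 1 library gave 2 to 4, with 4 without piPSC8 (SOX2 and SOX5 added). The number called lower was 1. It was 2 with the replicate block, a pseudocount of 0.1, the median ratio scaling, the equal sums scaling and voom, it was 0 with no filter and with quantile normalization, and it was 0 to 2 when 1 library was left out. The cause was not tested. With lines paired through the replicate block, SOX11 gained a call (limma adjusted p = 0.0304) and FABP7 (0.0617) and TFAP2A (0.051) lost theirs. Among the other tested members, SOX21 and the up to 3 called genes taken per list, no call changed. For the remaining list genes, calls with the block are not reported here. The whole table gave 4575 calls, and between 4053 and 5233 over the alternatives. Of 90 line ratios under alternatives, 28 moved, and 2 turned sign, both of SOX5 in line 8, from 0.06 to -0.02 with the median ratio scaling and -0.15 with the equal sums scaling. Members under about 30 fragments in a library, such as SOX13, and the piPSC values of SOX8, SOX9 and SOX17, are limited by depth.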
